A study of Mus musculus with 4 samples.

Results

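Fatty acid beta-oxidation enzymes are described here as a set of 38 named genes, chosen by name from the mitochondrial and peroxisomal pathways and not by any measured value, out of 21627 protein-coding genes on chromosomes 1 to 19 and X. The choice was made with earlier results of these data known. All 38 were found in the RefSeq gene table of GRCm38 (mm10), the build of the peak lists. For each gene, the listed peaks of accessible chromatin were counted within 1 kb of either end of the gene, inside it, and within 50 kb of it.

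Beta-oxidation shortens fatty acyl-CoA from its carboxyl end and releases acetyl-CoA, and in liver it supplies energy and ketone bodies during fasting. Long chains are activated to acyl-CoA, enter mitochondria as carnitine esters, and pass through a dehydrogenase, a hydratase, a second dehydrogenase and a thiolase. Peroxisomes run a parallel pathway for very long, branched and bile acid side chains, in which the first step is an oxidase. Odd-numbered and branched chains end in propionyl-CoA, the substrate of the enzyme that the mutant mice lack in part.

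The data are ATAC-seq peak positions from livers of female mice of the FVB background, aged 11 weeks and kept on standard chow. ATAC-seq marks open DNA by the insertions of a transposase, and frozen liver was taken through the Omni-ATAC procedure. Each genotype had 2 libraries. The control is wild-type (WT), and the mutant, labelled PA, is hypomorphic Pcca-/- (A138T). Pcca encodes the alpha subunit of propionyl-CoA carboxylase. The series text calls the replicates biological. The sources used here do not say what drives that form or whether a library holds 1 animal or a pool. Peak positions cannot check the mutation.

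The peak list of WT 1 had 26280 entries, that of WT 2 had 25941, that of PA 1 had 25683 and that of PA 2 had 29765. All but 3 or 4 entries of each list span 400 bp, and none has a score or height. A peak is therefore present or absent, and its only other attribute is its place in the file, given as the percentage of the way down the list. Place agreed between libraries with Spearman's rho of 0.862 to 0.929 across shared regions, which are not independent replicates, but the sources used here do not state what the lines were ordered by. Read depth is unknown. Of 9 hepatocyte markers, 5 were listed within 1 kb of an end in all 4 libraries, but Alb only in PA 1 and Apoa1 in none. None was so listed of 6 Kupffer cell, 4 bile duct, 4 lymphocyte and 3 neutrophil markers, while 2 of 5 endothelial and 1 of 5 stellate markers were. In whole liver, fewer cells with an open site and a less open site in each cell cannot be told apart.

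Promoter sequences of 8 genes are shown because the results below turn on their starts. They come from the RefSeq promoter table (GRCm38.p6), which held 36 starts for 34 of the 38 genes, and run 5′ to 3′ on the strand of the gene from 250 bases before the start to the 30 bases that begin at it. Capitals mark matches, on either strand, to the nuclear receptor motif AGGTCA, the GC box GGGCGG, the CCAAT box and the ETS core CCGGAA. Acadm stood near the top of every list:
Acadm, chr3:153944614-153944893, minus strand: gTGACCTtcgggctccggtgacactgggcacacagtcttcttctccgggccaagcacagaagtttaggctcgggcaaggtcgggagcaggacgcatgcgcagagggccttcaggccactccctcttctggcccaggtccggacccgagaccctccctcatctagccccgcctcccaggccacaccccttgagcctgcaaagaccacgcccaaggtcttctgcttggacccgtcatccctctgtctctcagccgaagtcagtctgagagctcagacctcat
Hadhb shares its promoter with Hadha, whose start lies 273 bp away on the other strand:
Hadhb, chr5:30155003-30155282, plus strand: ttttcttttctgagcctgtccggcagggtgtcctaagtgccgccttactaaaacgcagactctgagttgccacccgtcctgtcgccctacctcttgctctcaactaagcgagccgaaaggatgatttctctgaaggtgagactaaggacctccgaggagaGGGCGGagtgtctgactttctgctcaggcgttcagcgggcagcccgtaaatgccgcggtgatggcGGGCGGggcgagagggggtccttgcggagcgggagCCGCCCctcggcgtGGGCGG
Acadvl was listed in 2 of 4 libraries:
Acadvl, chr11:70015399-70015678, minus strand: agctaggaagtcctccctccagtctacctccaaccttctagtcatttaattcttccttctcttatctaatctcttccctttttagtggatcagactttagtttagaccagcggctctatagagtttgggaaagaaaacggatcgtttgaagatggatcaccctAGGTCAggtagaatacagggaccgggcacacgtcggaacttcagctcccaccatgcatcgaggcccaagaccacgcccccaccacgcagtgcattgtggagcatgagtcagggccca
The paralogous peroxisomal thiolase genes on chromosome 9 differed in their calls:
Acaa1a, chr9:119341044-119341323, plus strand: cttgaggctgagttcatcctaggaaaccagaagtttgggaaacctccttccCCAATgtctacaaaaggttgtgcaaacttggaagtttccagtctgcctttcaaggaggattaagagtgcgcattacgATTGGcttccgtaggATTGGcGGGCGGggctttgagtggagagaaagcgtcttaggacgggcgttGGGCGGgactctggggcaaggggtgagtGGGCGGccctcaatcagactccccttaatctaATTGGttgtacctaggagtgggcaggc
Acaa1b, chr9:119157064-119157343, minus strand: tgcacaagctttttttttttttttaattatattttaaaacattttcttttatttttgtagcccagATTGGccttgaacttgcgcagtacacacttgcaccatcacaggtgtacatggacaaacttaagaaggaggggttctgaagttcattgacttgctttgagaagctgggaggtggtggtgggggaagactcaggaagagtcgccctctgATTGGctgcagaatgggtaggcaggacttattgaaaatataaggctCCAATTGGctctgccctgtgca
So did the neighbouring thioesterase genes, with no call at Acot1 and one in each library at Acot2:
Acot1, chr12:84009252-84009531, plus strand: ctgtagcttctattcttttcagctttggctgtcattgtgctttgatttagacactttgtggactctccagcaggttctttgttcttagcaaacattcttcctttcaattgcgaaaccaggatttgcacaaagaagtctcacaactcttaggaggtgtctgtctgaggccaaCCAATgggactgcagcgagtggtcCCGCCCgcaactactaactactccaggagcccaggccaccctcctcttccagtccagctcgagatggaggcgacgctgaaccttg
Acot2, chr12:83987611-83987890, plus strand: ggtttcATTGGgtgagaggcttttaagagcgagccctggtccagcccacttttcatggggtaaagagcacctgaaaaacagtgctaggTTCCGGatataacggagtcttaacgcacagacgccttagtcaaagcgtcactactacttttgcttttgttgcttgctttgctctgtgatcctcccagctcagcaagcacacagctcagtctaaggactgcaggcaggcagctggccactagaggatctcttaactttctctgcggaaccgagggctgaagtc
Acsl1 has a pair of annotated starts of contrasting composition, both listed in all 4 libraries:
Acsl1, upstream start, chr8:46470787-46471066, plus strand: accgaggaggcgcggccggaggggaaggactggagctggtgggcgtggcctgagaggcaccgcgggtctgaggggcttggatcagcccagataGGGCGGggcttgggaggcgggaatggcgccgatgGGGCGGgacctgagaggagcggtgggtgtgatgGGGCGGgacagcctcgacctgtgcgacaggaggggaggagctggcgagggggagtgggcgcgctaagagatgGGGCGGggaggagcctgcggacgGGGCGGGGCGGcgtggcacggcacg
Acsl1, downstream start, chr8:46490716-46490995, plus strand: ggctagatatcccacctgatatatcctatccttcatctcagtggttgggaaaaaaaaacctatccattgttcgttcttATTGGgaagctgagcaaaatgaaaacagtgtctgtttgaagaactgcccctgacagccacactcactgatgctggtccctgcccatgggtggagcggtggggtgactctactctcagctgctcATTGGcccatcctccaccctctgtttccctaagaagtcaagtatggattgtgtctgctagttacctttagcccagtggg

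Most of the genes had an open promoter in every library, and none had one in a single genotype. A peak lay within 1 kb of a transcription start in all 4 libraries for 29 of the 34 genes with an annotated start, against 44.2% of 17273 protein-coding genes. By gene ends the count was 30 of 38, against 41.2% of all protein-coding genes, and by the gene body 35 of 38, against 47.5%. Every one of the 38 genes had a peak within 50 kb in all 4 libraries, against 76.3%. Those backgrounds include genes that liver does not use, and no comparison with active genes was made. Calls near an end in both libraries of a genotype and neither of the other numbered 0 for PA and 0 for WT, where the backgrounds are 0.661% and 0.476% of genes. The same counts were 0 and 0 at starts (backgrounds 0.643% and 0.457%), inside genes (0.879% and 0.583%) and within 50 kb (0.564% and 0.365%). With 38 genes shares that low give counts near 0, so nothing is read from them. No library listed a peak near an end of Scp2, Acot1, Acot4 or Acot8 (background 48.3%), near a start of Acsl5 or Acot1 (46%) or inside Hadha (39.3%), and no gene lacked one within 50 kb (16.3%).

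Eci2, Scp2 and Acot8 had no end called in all 4 libraries, but their tabulated starts lie inside the annotated span, and each was listed with a peak at that start in every library. Acaa2, Decr1, Hsd17b4 and Amacr each had one near a gene end in every library.

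**Figure D1:**
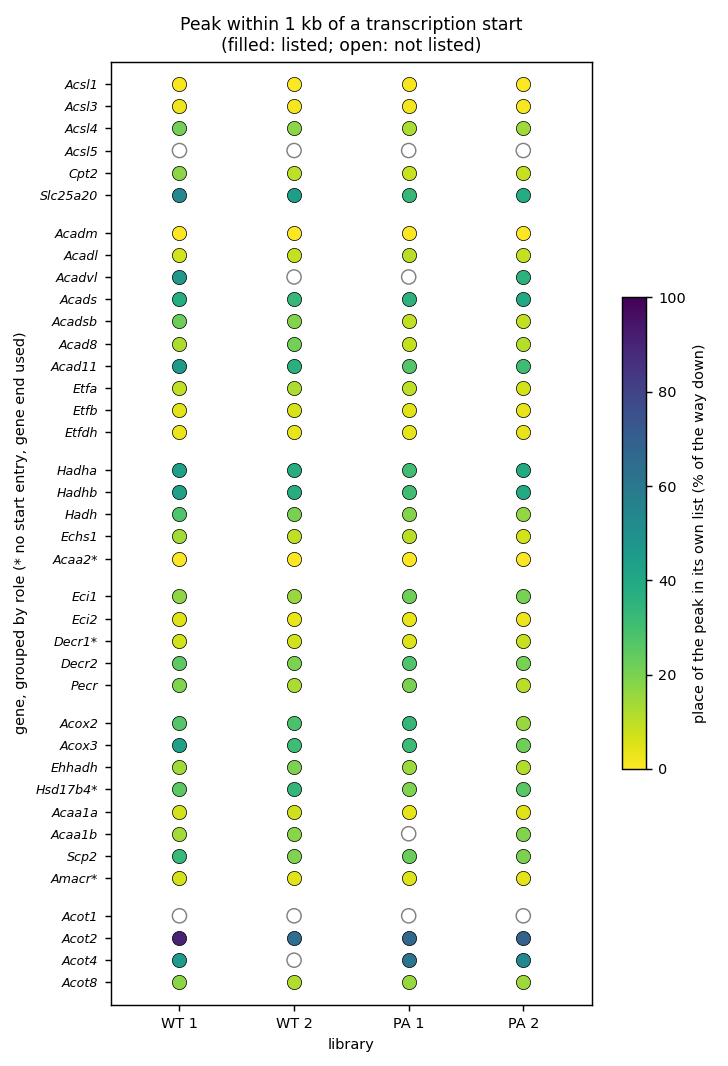
Each row is a gene, grouped by role, and each column a library. Filled circles mark a listed peak within 1 kb of a transcription start (within 1 kb of a gene end for genes with *), coloured by its place in that library's own list in percent (lighter is nearer the top), and open circles mark no listed peak. Open circles occur at Acsl5, Acadvl, Acaa1b, Acot1 and Acot4 only.

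Counts per library overlapped between the genotypes. Genes with a peak within 1 kb of a start numbered 32, 30, 30 and 32 in WT 1, WT 2, PA 1 and PA 2, a mean of 31 ± 1.41 in each genotype (SD, n = 2). Peaks inside the genes or within 1 kb of an end, summed over genes, were 57, 55, 54 and 59 in the same order, so that PA 1 was lowest and PA 2 highest and the genotypes overlapped (56 ± 1.41 in WT and 56.5 ± 3.54 in PA; SD, n = 2). Within 50 kb the sums were 162, 160, 156 and 177, or 161 ± 1.41 and 166.5 ± 14.8 (SD, n = 2), and a peak near several of the genes counts once for each. The exact permutation test over libraries gave a two-sided p of 1 for each of these measures (n = 2 per genotype), and 0.333 is the smallest p that 2 against 2 can give. PA 2, highest in the sums, also has the longest list. With the other lists shortened to the 25683 lines of PA 1, the difference within 50 kb was 1 peak in place of 5.5. In the upper 50% of each list it was 8 peaks. Both cuts drop lines from the bottom, and what the lines were ordered by is not stated. The part of list length in the difference was not tested.

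**Figure D2:**
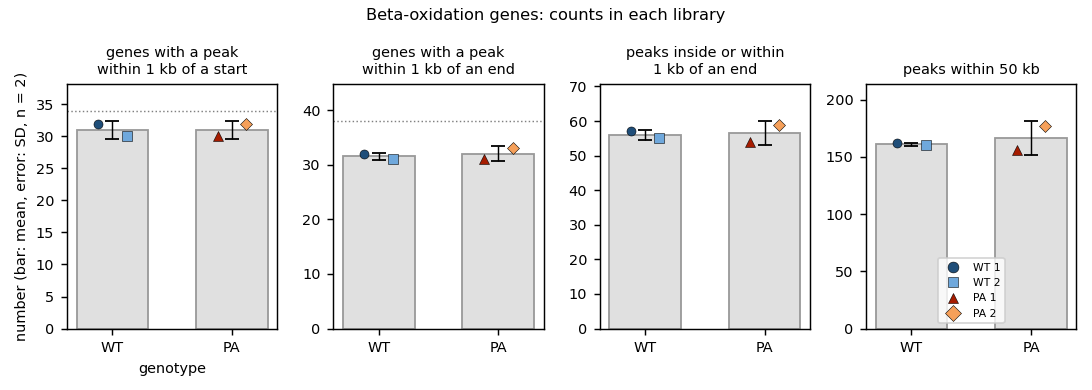
Bars show the mean of 2 libraries per genotype with SD, and points the single libraries, for the number of genes with a peak within 1 kb of a start (of 34, dotted line) or of a gene end (of 38), and for peaks summed over the 38 genes inside or within 1 kb and within 50 kb. Points of WT and PA overlap in every panel, and PA 2 is highest in both sums, at 59 and 177.

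Activation and carnitine genes were open at the start, with Acsl5 as the exception. Acsl1, the main acyl-CoA synthetase of liver, had its upstream start peak at a place of 0.883% and 0.644% in the WT lists and 1.45% and 0.588% in the PA lists. Its centre lay at -161 bp from the start in both WT libraries and at -165 bp in both PA libraries, where negative is upstream. Gm31050, which is not protein-coding, starts 13 bp from that upstream start on the other strand, so the peak cannot be given to Acsl1 alone. The downstream start stood lower, at 25.2%, 31.6%, 28.7% and 15.9%. Acsl1 also held the most regions of the 38 genes, 7 inside or within 1 kb, of which 4 were in all 4 libraries. Acsl3, a synthetase linked to lipid droplets, stood between 1.16% and 2.38% in the lists, and Utp14b starts 615 bp from its start on the same strand. Acsl4, which prefers arachidonate, stood between 12.5% and 21.1%.

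Acsl5, a synthetase of mitochondria and endoplasmic reticulum, had no peak within 1 kb of its annotated start in any library. A peak 4356 bp downstream of the start was listed in all 4, at 17.8%, 21.7%, 26.9% and 15.3% of the lists. Only PA 2 had a peak at the upper end of the annotated gene, with its centre at -1492.5 bp from the start. Cpt2, which turns acylcarnitine back into acyl-CoA in the inner membrane, had its start peak at 17.3%, 9.84%, 8.03% and 8.89% in WT 1, WT 2, PA 1 and PA 2. Slc25a20, the carnitine-acylcarnitine carrier, was lower in the lists, at 53%, 44.8%, 33.5% and 38.3%, and present in every one.

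Among the acyl-CoA dehydrogenases and their electron acceptors, 9 of 10 genes had a start peak in all 4 libraries. Acadm, the medium-chain dehydrogenase, was the gene nearest the top of the lists, at 0.0951%, 0.108%, 0.179% and 0.0874%. It was the only one of the 31 member starts called in all 4 libraries to stand in the first 1% of every list, or 3.23%, beside 1.71% of all 8863 such starts. Etfa and Etfb encode the subunits of the electron transfer flavoprotein. Etfa stood at 9.47%, 12.3%, 10% and 6.58% in WT 1, WT 2, PA 1 and PA 2, and Etfb between 3.52% and 6.14%. Etfdh, which passes those electrons to ubiquinone, stood between 2.79% and 3.67%.

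The start peak of Acadvl, the very long-chain dehydrogenase, was listed in WT 1 (46.6% down) and PA 2 (35.7% down) and not in WT 2 or PA 1, so each genotype had 1 library with and 1 without it. The 4 other regions within 50 kb were listed in all 4 libraries, the nearest 5926 bp from the gene. Acadl, the long-chain dehydrogenase, had a peak in every library but at different places. Its centre lay at 458 bp from the start in WT 1, WT 2 and PA 2, and at -56 bp in PA 1. Acads, the short-chain dehydrogenase, stood at 38%, 33.1%, 35.9% and 40.2%, where the genotypes overlapped.

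Acad11, a dehydrogenase of long and hydroxylated chains, had start peaks with centres at -103 and -2 bp in WT 1 and WT 2, and at -208 and -216 bp in PA 1 and PA 2. The branched-chain genes Acadsb and Acad8, which act in isoleucine and valine breakdown, had centres within 5 bp and 1 bp across libraries. The Acadsb peak stood at 22.6% and 18.4% in the WT lists and at 9.11% and 9.19% in the PA lists. Over all 8863 starts called in all 4 libraries, the median place was 24.8% and 22.1% in WT 1 and WT 2. It was 19.9% and 21.3% in PA 1 and PA 2. The difference in place at Acadsb was not tested. Acadsb and Acad8 each share a promoter with a gene on the other strand, Ikzf5 at 123 bp and Thyn1 at 128 bp. The peak cannot be given to one gene of the pair.

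From the hydratase to the thiolase of mitochondria, every gene was called in all 4 libraries. Acaa2, the mitochondrial thiolase, stood at 0.601%, 0.351%, 0.494% and 0.296% of the lists, near the top in each. Hadha and Hadhb encode the subunits of the trifunctional protein, and 1 region (chromosome 5, 30155009 to 30155499) lay at both starts. It stood at 43.6%, 37.7%, 30.7% and 39.3% in WT 1, WT 2, PA 1 and PA 2. The region overlapped the first bases of Hadhb and lay 29 bp outside Hadha, which is why Hadha was the only gene with no peak inside in any library. Echs1, the short-chain hydratase, stood between 6.91% and 13.8%, and Hadh, the short-chain hydroxyacyl-CoA dehydrogenase, at 27.4%, 20.2%, 18.6% and 16.5% in WT 1, WT 2, PA 1 and PA 2. A second Hadh region, 8117 bp downstream of the start, was listed in WT 1, WT 2 and PA 2 at 71.4%, 65.9% and 69.7%, and not in PA 1.

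The auxiliary enzymes, which handle double bonds of unsaturated chains, were all called at a start or an end in every library. Eci1, the mitochondrial enoyl-CoA isomerase, stood between 15.6% and 21.9%. Eci2, a second isomerase, stood higher, at 4.82%, 3.44%, 3.36% and 2.38%. Of its 5 regions inside or within 1 kb, 2 were in all 4 libraries. A further one lay at the upper end of the annotated gene in PA 1 alone, at 92.6%. Decr1, the mitochondrial dienoyl-CoA reductase, stood between 5.17% and 8.35%, and its peroxisomal counterpart Decr2 at 24.9%, 19.7%, 27.7% and 20.4% in WT 1, WT 2, PA 1 and PA 2. Pecr, a peroxisomal enoyl-CoA reductase, stood between 10.9% and 20.2% with centres 1 bp apart over the libraries, and its start lies 52 bp from that of Tmem169 on the other strand.

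Of the 8 peroxisomal genes, all but Acaa1b had a start or end peak in every library. Its paralog Acaa1a had a start peak at 6.66%, 7.12%, 3.88% and 5.04% of the lists, with centres within 12 bp. The Acaa1b start was listed in WT 1 (13.8%), WT 2 (17.8%) and PA 2 (18.8%), with centres within 2 bp, and not in PA 1. A region 1430 bp downstream of the Acaa1b start (chromosome 9, 119155436 to 119155890) was listed in PA 1 (37.1%) and PA 2 (28.1%) and in neither WT library. PA 2 thus had both peaks, the WT libraries the upstream one and PA 1 the downstream one. The PA libraries share the inner peak and differ at the start.

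Ehhadh, the bifunctional enzyme of straight-chain peroxisomal oxidation, had its start peak between 11.4% and 19.9%. Hsd17b4, the bifunctional enzyme of branched chains, stood between 19.4% and 33.6%, and Amacr, the racemase that prepares branched chains, between 4.09% and 6.49%. Scp2, whose long product is the branched-chain thiolase, held 5 regions inside the gene, 4 of them in all 4 libraries, with the start peak at 32.5%, 19.4%, 22.7% and 19.9%. The oxidase genes Acox2 and Acox3 stood between 15.3% and 33.8% and between 22% and 42.7%. At the upstream start of Acox2 the centres lay at -365 bp in WT 1, 57 bp in WT 2, 20 bp in PA 1 and 26 bp in PA 2, so WT 1 alone stood apart.

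Of the 4 thioesterases, which release free fatty acids from acyl-CoA, 2 had a start peak in all libraries. Acot8, a peroxisomal thioesterase, stood at 17.4%, 12.1%, 16% and 14.8% in WT 1, WT 2, PA 1 and PA 2, and its start lies 233 bp from that of Zswim3 on the other strand. Acot2, the mitochondrial form, had the lowest start peak of the genes called in all 4 libraries, at 90.3%, 64.3%, 66.5% and 68.6%. Acot1, the cytosolic form, had no peak within 1 kb of its start. A peak 2230 bp downstream was listed in WT 1, WT 2 and PA 2 (69.4%, 66.7% and 60.7%) and not in PA 1. At Acot4, a peroxisomal form, peaks with centres 506, 592 and 506 bp downstream of the start were listed in WT 1, PA 1 and PA 2. A region 4089 bp downstream was listed in WT 2 and PA 2, so WT 2 had that one alone and PA 2 had both. Acot1, Acot2 and Acot4 are neighbouring paralogs on chromosome 12. The sources used here do not say how reads that match several copies were handled.

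**Figure D3:**
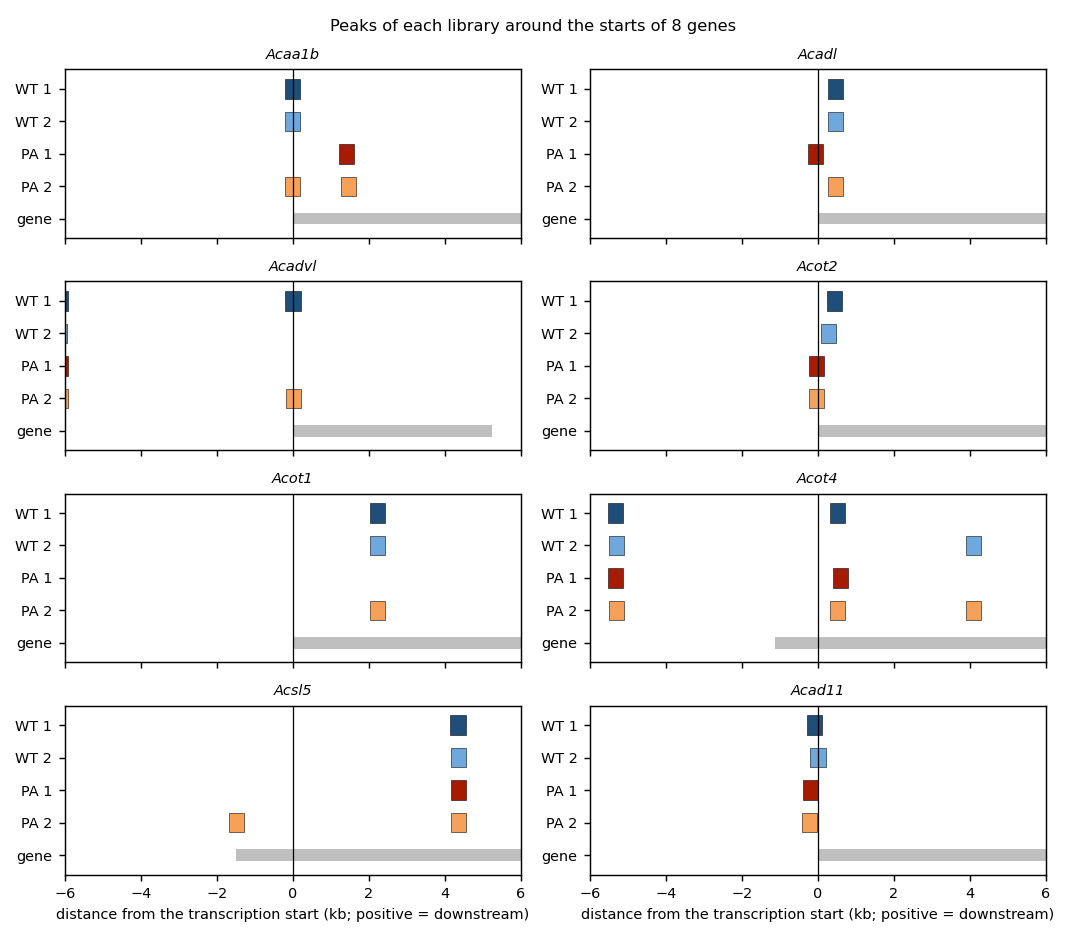
Boxes are listed peaks of the 4 libraries (rows), drawn by distance in kb from the transcription start of 8 genes (positive is downstream), and the grey bar is the annotated gene. At Acaa1b the peak at the start is missing in PA 1 and the inner peak is in PA 1 and PA 2 alone, and at Acot2 the WT peaks lie downstream of the PA peaks.

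Over the 31 member starts called in all 4 libraries, the centres spanned a median of 38 bp between libraries, beside 41 bp over all 8863 such starts. The span was 50 bp or less at 17 of them (54.8%, beside 61.7%). The mean centre was upstream of the start at 22 of 31 (70.97%, beside 75.03% of the 8863). Centres of the WT libraries did not overlap those of the PA libraries at 13 of the 31 starts (41.9%), beside 26.1% of the 8863. Any gap counted here, down to 1 bp at Hadh. Both starts of Acsl1 are among the 13, with gaps of 4 and 1 bp. At 2 of the 31 starts the gap between genotypes was over 50 bp, beside 2.57% of the 8863. Those were Acad11, with a gap of 105 bp, and Acot2, with a gap of 328 bp. At Acot2 the centres lay 439 and 284 bp downstream in WT 1 and WT 2 and at -44 bp in both PA libraries. No test was made of these shifts, which were looked at after the lists had been seen.

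**Figure D4:**
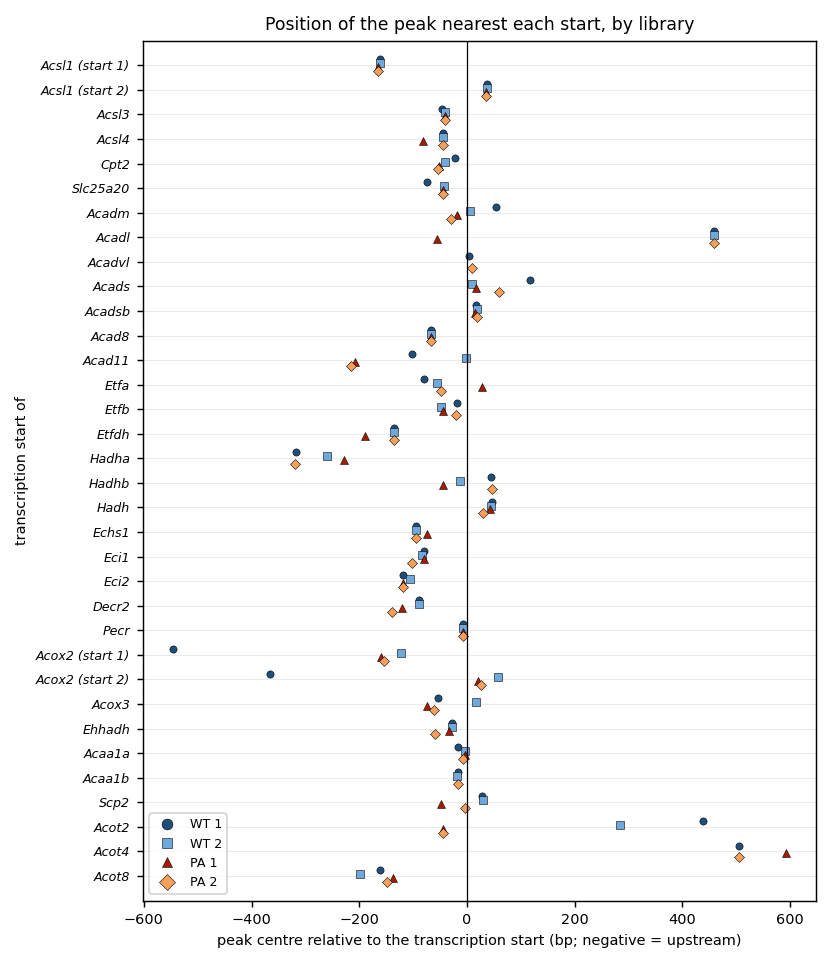
Points give the centre of the peak nearest each transcription start in each library, in bp from the start (negative is upstream). The points span 50 bp or less at 17 of the 31 starts called in all 4 libraries and the most, 514 bp, at Acadl, and WT and PA points separate by over 50 bp at Acad11 and Acot2.

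Away from the starts, few regions were restricted to a genotype. Peaks of the libraries were joined into regions, and 194 lay within 50 kb of the genes, 115 of them (59.3%) in all 4 libraries, against 45.3% of all 38853 regions. Each gene had between 1 and 6 such regions, with a median of 3 and the most at Acsl1. Regions in both PA and no WT library numbered 8 (4.12%), against a background of 3.38%. The reverse kind numbered 2 (1.03%), against 1.98%. By position, 0 of 34 regions near an end of one of the 38 genes were of either kind. Of all regions near an end of any protein-coding gene, 1.67% were PA-only and 1.2% WT-only. That rule is wider, and by it the WT-only region that overlaps an end of Mrpl28 would also be near an end. Of 35 regions inside the 38 genes and away from their own ends, 2 (5.71%) were PA-only and 0 WT-only. Of all regions inside any gene and away from every gene end, the shares were 4.03% and 2.32%. These counts are near the shares over all regions. Only 3 of the 10 had one of the 38 genes as the nearest gene by its ends.

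The regions inside genes were that of Acaa1b, above, and one in Acsl1 (chromosome 8, 46529472 to 46529882), 6169 bp from the far end of the gene. The Acsl1 region stood low in its lists, at 65.6% in PA 1 and 59.8% in PA 2, and its nearest WT peak was 16576 bp away. The third region nearest to one of the genes lay 39956 bp from Eci2, at 82.4% and 82.1%. A region 3392 bp from Cpt2 was in both PA libraries (56.7% and 47.6%), with a WT peak 514 bp away. Another lay 6402 bp from Hadha, nearest to Garem2, at 77.7% in PA 1 and 59.4% in PA 2. One 28041 bp from Acad11 stood at 91.4% and 81.3%. Both remaining PA regions lay on either side of Acaa1a, nearest to Oxsr1 (95.3% and 76.2%) and Xylb (88.6% and 66.2%). The WT regions were 32901 bp from Decr2, overlapping an end of Mrpl28, and 45042 bp from Acox2, nearest to Fam107a. Those WT peaks stood at 89.3% and 65.8%, and at 71.9% and 65.2%, in WT 1 and WT 2.

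The 5 member starts called in fewer than 4 libraries (Acsl5, Acadvl, Acaa1b, Acot1 and Acot4) had CpG observed to expected ratios from 0.284 to 0.482 and a GC content from 43.7% to 53%. The 31 starts called in all 4 had a median ratio of 0.691, from 0.0915 to 0.932, and a median GC content of 58.7%. The ratio compares the CpG dinucleotides of the 300-base promoter with the number its C and G content would give. Over all 21044 promoters the share called in all 4 libraries was 4.73% where the ratio was below 0.2, 37.4% from 0.4 to 0.6 and 74.8% from 0.8 to 1. The ranges overlapped: both starts of Acox2 (0.0915 and 0.163), the downstream start of Acsl1 (0.214), Acadm (0.459) and Acaa1a (0.481) had ratios below the highest of those 5 and were called in every library. The upstream start of Acsl1 had a ratio of 0.859, and Acaa1b had 0.284.

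**Figure D5:**
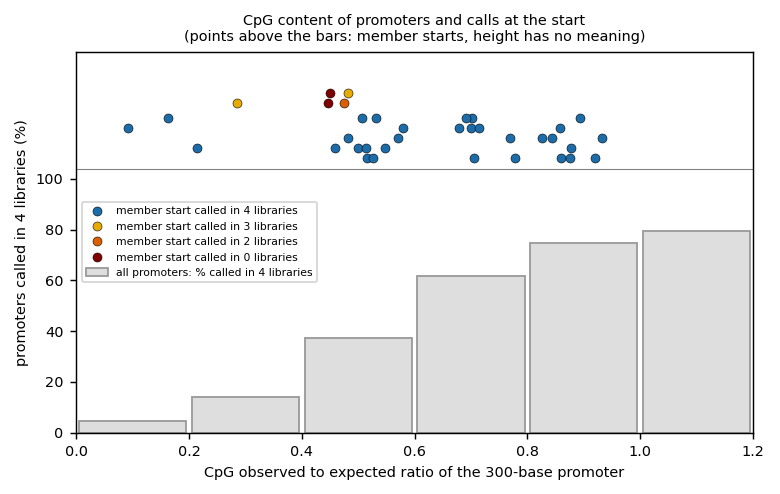
Bars give the percentage of all promoters called in 4 libraries, by the CpG observed to expected ratio of the 300-base promoter in steps of 0.2. The points above are the 36 member starts at their own ratio, coloured by the number of libraries with a call (their height has no meaning), and all 5 starts called in fewer than 4 libraries lie below 0.5.

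The GC box GGGCGG was found in 26 of the 36 member promoters (72.2%), against 46.7% of all promoters and 69.9% of those called in 4 libraries. CCAAT was in 19 (52.8%, against 38.5% and 41%). CCGGAA was in 8 (22.2%, against 18.9% and 31.9%). TATAAA was in 1, that of Acot4 (2.78%, against 12.7% and 5.79%). AGGTCA was in 5, those of Acadm, Acadvl, Acot4, Echs1 and Scp2 (13.9%, against 14.6% and 11.4%). The DR1 element, which is AGGTCA repeated after any 1 base and so overlaps that motif, is bound by PPAR alpha with RXR and by HNF4. It was in 0 of 36, in 0.0475% of all promoters and in 0.0226% of those called in 4 libraries. The NRF1 element was in 1 (Etfdh, 2.78%, against 1.34% and 2.54%), CACGTG in 1 (Acot4, 2.78%, against 7.91% and 10.6%) and TGACGTCA in 0 (against 2.26% and 3.64%). All were searched on both strands. In the sequences above, Acaa1a carries 3 GC boxes and 4 CCAAT matches, and Acaa1b 4 CCAAT matches and no GC box. Acadvl carries an AGGTCA match that begins at -87 bases from the start and Acadm one at -249. A match describes the letters only, and a missing one says nothing of a factor.

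The start of a protein-coding gene on the other strand lay within 1 kb for 7 of the 34 genes (20.6%), namely Acadsb, Acad8, Etfdh, Hadha, Hadhb, Pecr and Acot8. The share was 9.73% over all protein-coding genes and 18.7% over those with a start called in all 4 libraries. At Etfdh the partner was 4930579G24Rik, 312 bp away.

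Of 39 other genes of the pathway, 25 were listed with a peak within 1 kb of an end in all 4 libraries, 6 in some and 8 in none, against the same 41.2% in all 4. Fabp1, the fatty acid binding protein of liver, and Acad10 each had one in both WT libraries and no PA library. They are 2 of the 39, against 0.476% of all genes, and 0 had the reverse, against 0.661%. Counted inside the gene, 2 of the 39 were listed in WT alone and 2 in PA alone, against 0.583% and 0.879%. Near an end, Cpt1a, the gate of mitochondrial entry, was listed in WT 1 and PA 2 and not in WT 2 or PA 1. So were Cpt1b and the member Acadvl. Of 7 regulators of the pathway, 5 were listed near an end in all 4, among them Ppara, the receptor that drives it in fasting. Ppargc1a and Rxra were listed there in none.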

How the data were processed

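Peak positions were analysed from 4 mouse liver ATAC-seq libraries. The authors deposited 1 list of chromosome, start and end per library, so the deposited values are coordinates with no measurement unit, score or count. The submitters' processing notes name GRCm38 (mm10) and, with no roles, bedtools 2.31.0, HOMER 4.10, Bowtie2 2.5.1, cutadapt 3.5, R 4.1.2 and SAMtools 1.17. Peak caller, threshold, read filtering and shifting of insertions: not given in the sources used here. A longer list, as in PA 2, can reach more places.

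Group and replicate number came from the sample titles. A gene counted as called where a listed peak overlapped its window by 1 bp or more. Peaks that overlapped or touched across libraries were joined into regions. Genes came from the RefSeq table, with 1 entry per symbol, and starts and strands from the RefSeq promoter table. Counts per library were compared by an exact permutation test. No test was made per gene, since 2 against 2 cannot pass 0.05, and the counts stand beside those of all genes or regions. The members, gene lists and motifs were chosen with earlier results of these data known. All 38 members are named. Those with uneven calls, no call near an end, a genotype-restricted region inside or within 1 kb, or the most regions of their group are given library by library. Other pathway genes were to be named for calls in 1 genotype alone. Cpt1a, Cpt1b, Ppara, Ppargc1a and Rxra were added after their calls were seen, as were the genes nearest to restricted regions. Alternatives changed the windows, the overlap, the merging, the length of the lists and the libraries used. The counting was tested on simulated peaks. Python 3.11.15, pandas 2.3.3, numpy 2.4.6, scipy 1.17.1 and matplotlib 3.10.9 were used.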

Additional observations from a re-analysis of the deposited data

How the results depend on the processing

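Of 81 recomputed values, 66 stayed within 1.5 times the reported count or within the spread of the libraries. For PA minus WT differences that spread was the larger SD within a genotype, 3.54 inside or within 1 kb and 14.8 within 50 kb. The rule is wide: all those differences passed it, also where the sign changed. Genes called in all libraries ranged from 29 to 30 by starts, 30 to 31 by gene ends, 35 to 36 by gene bodies and 38 to 38 within 50 kb when 1 library was left out. Such an omission can only keep or raise these counts. In the upper 50% of each list, the counts were 27, 28, 31 and 34 in the same order. Genes with a peak inside fell from 35 to 16 when at least 50% of the peak had to lie inside, since peaks at a start straddle it. PA-only regions within 50 kb were 8 and WT-only regions 2. They were 2 and 0 when only regions inside a gene or within 1 kb counted, and 3 and 0 in the upper 50% of each list. Leaving out 1 library loosens the condition and gave 10 to 19 PA-only regions (19 without PA 1 or without PA 2) and 4 to 15 WT-only regions (15 without WT 2). Single-genotype calls at gene ends, 0 for each genotype, then ranged from 0 to 1. PA minus WT peaks per library ranged from -2 to 3 inside or within 1 kb and from -5 to 16 within 50 kb, and both were negative without PA 2. The replicate number as a block, an alternative chosen after seeing the data, leaves the mean PA minus WT difference unchanged by construction, since each pair holds 1 library of each genotype. That mean was 0.5 peaks inside or within 1 kb (-3 and 4 in the 2 pairs) and 5.5 within 50 kb (-6 and 17). Both means count among the 66 values above, though they could not have moved. The exact sign-flip test gave a two-sided p of 1 for both, and 0.5 is the smallest that 2 pairs can give. Deviations of same-numbered libraries across the 38853 regions had a correlation of r = -0.0069. Apart from that correlation, whether those libraries share anything beyond the number was not tested. Between same-numbered libraries, 3 genes (WT 1 and PA 1) and 2 genes (WT 2 and PA 2) differed in their call at an end.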
